A study of Mus musculus with 2 samples.

Results

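The Rtl1 antisense microRNA genes are Mir431, Mir433, Mir127, Mir434, Mir432 and Mir136, which lie on mouse chromosome 12 on the strand opposite to the coding gene Rtl1. They were chosen by name, as the microRNA genes that the GENCODE M21 annotation places opposite Rtl1, and they make up 6 of the 2202 microRNA genes in the count tables. The rule uses names and no measured value, although earlier results of these data were known when the genes were chosen. Of these 6 genes, 5 gave counts in the cortex and Mir432 gave none.

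The tissue was left cerebral cortex from 25-day-old female B6CASTF1/J mice, and RNA under 30 nt was sequenced. The mice come from an F1 cross between the C57BL/6J and CAST/EiJ strains. The 2 libraries form a single group with no treatment or altered allele, so no condition was compared. The labels number the animals Female 03 (replicate 1) and Female 04 (replicate 2), yet both libraries carry the same donor record. Differences between the libraries therefore measure the spread between these samples, which may be technical.

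Rtl1 is a retrotransposon-derived gene of the imprinted Dlk1-Dio3 domain that is needed for the mouse placenta, and it is transcribed from the paternal chromosome. The antisense microRNAs are processed from RNA of the maternal chromosome, together with the other noncoding RNAs of the domain, which is active in brain. Because they are read from the opposite strand of the Rtl1 coding sequence, they pair with Rtl1 mRNA without mismatches, and cleavage of Rtl1 RNA guided by them has been described in sheep. In the mouse, deletion of Mir127 raised the Rtl1 protein and altered the placenta. The parent of origin of the reads and the Rtl1 mRNA were not analysed here.

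The sequences below are those that the results turn on. RefSeq (GRCm38.p6) lists 11 mature microRNAs for the 6 genes, with both arms for each gene other than Mir432, for which it lists 1. Each is given 5′ to 3′ with its seed, bases 2 to 8, in capitals. The seed is the stretch by which a microRNA mainly recognises its targets.
miR-431-5p: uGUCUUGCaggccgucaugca
miR-431-3p: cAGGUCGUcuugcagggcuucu
miR-433-5p: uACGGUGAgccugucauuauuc
miR-433-3p: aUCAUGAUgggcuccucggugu
miR-127-5p: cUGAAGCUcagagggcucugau
miR-127-3p: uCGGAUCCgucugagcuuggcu
miR-434-5p: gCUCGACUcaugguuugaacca
miR-434-3p: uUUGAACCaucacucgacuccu
miR-432: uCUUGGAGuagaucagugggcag
miR-136-5p: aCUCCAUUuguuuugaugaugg
miR-136-3p: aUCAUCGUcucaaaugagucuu

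The 11 mature sequences carry 11 distinct seeds, so no pair of these genes forms a seed family. None of the seeds occurs as the seed of the 1727 mature sequences that RefSeq lists for other mouse microRNA genes. The genes share their place opposite Rtl1, which follows from the choice, but no seed. The longest stretch that any of the 6 hairpins has in common with another microRNA gene on its own strand is 12 nt, shorter than any of the mature arms. Neither arm of these hairpins was found whole in any other annotated transcript.

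As their place opposite Rtl1 implies, all 11 mature sequences have 1 perfect complement in the Rtl1 transcript of 6358 nt, and each complement lies within the 1744 codons of its coding sequence. The sites below are written as Rtl1 transcript sequence, with the complement of the seed in capitals. They are shown for Mir433 and Mir127, which had the highest levels, for Mir432, which had no count, and for Mir136, which faces the start of the coding sequence.
Rtl1 site of miR-433-3p, codons 1201 to 1208: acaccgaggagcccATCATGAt
Rtl1 site of miR-127-3p, codons 832 to 839: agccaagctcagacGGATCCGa
Rtl1 site of miR-432, codons 126 to 133: ctgcccactgatctaCTCCAAGa
Rtl1 site of miR-136-5p, codons 18 to 25: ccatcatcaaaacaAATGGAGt

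The order of the genes along the plus strand is the reverse of the order of their sites along the Rtl1 message. Mir136 faces the first codons of Rtl1 (hairpin opposite codons 6 to 26), and Mir431 faces codons near its end (1623 to 1653). Mir432 lies opposite codons 125 to 150, Mir434 opposite codons 269 to 300, Mir127 opposite codons 830 to 853 and Mir433 opposite codons 1189 to 1230. All 6 hairpins are perfectly complementary to the Rtl1 coding sequence over their whole length.

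On mm10 (GRCm38), with GENCODE M21 annotation, the 6 genes span 109590447 to 109595388 on the plus strand of chromosome 12, inside Rtl1 (chr12:109589193-109600330, minus strand). Mir431 (ENSMUSG00000070080.1) lies at chr12:109590447-109590537 and Mir433 (ENSMUSG00000070072.1) at chr12:109591715-109591838. Mir127 (ENSMUSG00000070076.2) lies at chr12:109592846-109592915 and Mir434 (ENSMUSG00000070133.1) at chr12:109594506-109594599. Mir432 (ENSMUSG00000087855.1) lies at chr12:109594956-109595030 and Mir136 (ENSMUSG00000104858.1) at chr12:109595327-109595388. The gaps between neighbours measure 1177, 1007, 1590, 356 and 296 nt in this order, so the last 3 genes stand closest together.

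The hairpins of 4 genes are printed with the annotated mature arms in capitals. They were picked for the level of Mir127, the repeat in Mir434, the lack of counts at Mir432 and the overlap at Mir136.
Mir127 hairpin: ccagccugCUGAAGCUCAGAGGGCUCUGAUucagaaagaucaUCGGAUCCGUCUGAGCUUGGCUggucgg
Mir434 hairpin: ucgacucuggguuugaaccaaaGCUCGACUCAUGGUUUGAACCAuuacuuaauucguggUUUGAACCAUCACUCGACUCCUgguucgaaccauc
Mir432 hairpin: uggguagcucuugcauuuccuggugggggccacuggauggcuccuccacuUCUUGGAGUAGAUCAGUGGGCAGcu
Mir136 hairpin: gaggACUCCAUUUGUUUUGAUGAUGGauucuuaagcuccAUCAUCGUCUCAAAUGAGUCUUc

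The Mir434 hairpin holds a unit of 11 nt, gguuugaacca, in 3 copies. One copy ends the 5p arm and another runs into the 3p arm, so that miR-434-5p contains the whole unit and miR-434-3p part of it. The computed folding energy per nt (RNAfold) was lowest for Mir127 at -0.501 kcal/mol and highest for Mir432 at -0.316 kcal/mol. Values of -0.477 for Mir431, -0.455 for Mir136, -0.398 for Mir434 and -0.361 for Mir433 lay between them. Over all 2202 microRNA transcripts the median was -0.369, with quartiles at -0.440 and -0.304. The GC content ran from 40.3% in Mir136 to 60.4% in Mir431, beside a median of 50.8% over all microRNA transcripts.

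Counts were taken on each gene's own strand and scaled to the library total of such counts (CPM). That total was 3017058 counts in replicate 1 and 3209361 counts in replicate 2. The 5p and 3p arms of a gene are counted together, so these levels belong to genes. Where no read was counted, the limit was set at 3 counts, or 0.994 CPM in replicate 1 and 0.935 CPM in replicate 2. Reads placed at several loci, 40.3% and 39.0% of all reads, form a class apart and entered no gene count. Summed marker microRNAs of neurons held 21.9% and 20.6% of counts and those of astrocytes 3.09% and 2.73%. The neuron sum came mostly from 1 gene, Mir139, with 470119 counts in replicate 1 and 455403 in replicate 2. Of the 10 neuron markers, 7 had at least 10 counts in both libraries. The rest were the numbered copies Mir124a-1, Mir124a-2 and Mir124a-3, and Mir124a-1 had 3 counts in replicate 1 and 9 in replicate 2. Markers of oligodendrocytes, microglia and immune cells, and vessels held between 0.240% and 1.26%. The liver marker Mir122 (46.7 and 51.1 CPM), the red blood cell list (51.0 and 75.4 CPM) and the striated muscle list (27.2 and 34.3 CPM) were low. The choroid and ciliated list reached 488 and 340 CPM. In the muscle list 4 of 5 genes had 0 counts, and these 4 are numbered copies of one another in pairs. Reads that fit more than 1 copy entered no gene count, so low counts of markers with several copies do not show that a cell type was absent. The part of these cell types in the levels below was not tested, and in bulk tissue fewer cells of a type and less RNA per cell cannot be told apart.

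The 6 genes together supplied 215773 counts in replicate 1 and 226774 in replicate 2. This was 7.15% and 7.07% of all microRNA gene counts (7.11% ± 0.0606, SD, n = 2). Reads placed at several loci are left out of these shares and of the ranks below. Genes with several like copies can therefore stand too low, and the 6 genes too high beside them. Their median level was 1942 CPM, while the median over all 2202 genes was 0 CPM, since 1460 genes had no count in either library. At least 10 counts in both libraries were found for 5 of the 6 genes, against 395 of all 2202. A mean of 1000 CPM was reached by 4 of the 6, against 99 of all genes.

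Mir127, whose microRNA acts on Rtl1 in the mouse placenta, gave the highest level of the 6. It had 141774 counts (46991 CPM) in replicate 1 and 142611 counts (44436 CPM) in replicate 2, a mean of 45713 ± 1807 CPM (SD, n = 2). Among all microRNA genes, counted by reads placed at a single locus, it stood at rank 5 by mean level. Its rank was 5 in replicate 1 and 6 in replicate 2. Mir127 alone held 65.7% and 62.9% of the counts of the 6 genes (64.3% ± 1.99).

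Mir433, whose microRNA has been described as acting on HDAC6 in human cells, came next. It had 62717 counts (20788 CPM) in replicate 1 and 70351 counts (21921 CPM) in replicate 2, a mean of 21354 ± 801 CPM, and stood at rank 11 in both libraries. It held 29.1% and 31.0% of the counts of the 6 genes. Mir127 and Mir433 together held 94.8% and 93.9% (94.3% ± 0.610). The small rest fell to Mir434, Mir431 and Mir136, as Mir432 had no count.

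Mir434 had 5001 counts (1658 CPM) in replicate 1 and 7696 counts (2398 CPM) in replicate 2, a mean of 2028 ± 524 CPM. Mir431, whose microRNA promotes axon regrowth of cultured mouse sensory neurons, had 6035 counts (2000 CPM) in replicate 1 and 5496 counts (1712 CPM) in replicate 2. Its mean was 1856 ± 204 CPM. The ranges of the 2 genes over the libraries overlap, with Mir431 the higher in replicate 1 and Mir434 the higher in replicate 2. Each held between 2.32% and 3.39% of the counts of the 6 genes.

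Mir136 had 246 counts in replicate 1, or 81.5 CPM (95% Poisson interval 71.7 to 92.4), and 620 counts in replicate 2, or 193 CPM (178 to 209). The intervals, which cover counting error only, do not meet. Its mean was 137 ± 78.9 CPM, at rank 183 of all genes, and it held 0.114% and 0.273% of the counts of the 6 genes.

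Mir432 had 0 counts in both libraries, also in the columns for the opposite strand and for either strand. Set against 3 counts per library, Mir136, the lowest of the other genes, stood at least 82-fold higher in replicate 1 and at least 207-fold higher in replicate 2. Mir127 stood at least 47258-fold and 47537-fold above the same limit. Mir432 lies between Mir434 and Mir136, both of which were counted, with 356 and 296 nt to them. No microRNA arm of Mir432 was therefore detectable at this depth among reads placed at a single locus.

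**Figure D1:**
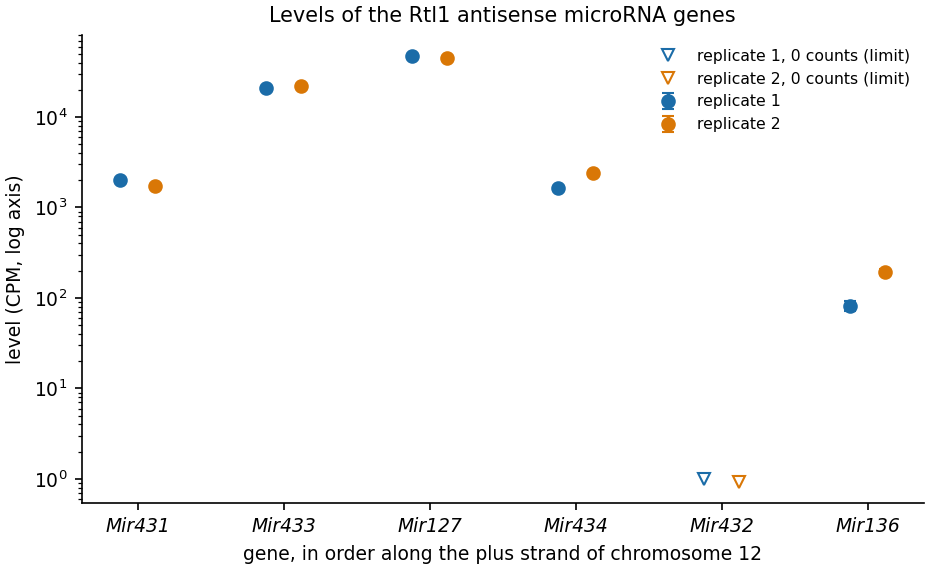
Level of each Rtl1 antisense microRNA gene in replicates 1 and 2, in CPM on a log axis, with genes in order along the plus strand; bars are 95% Poisson intervals and are mostly smaller than the points, and open triangles mark the limit of 3 counts where no read was counted. Levels run from 45713 CPM (mean) for Mir127 to 137 CPM for Mir136, and Mir432 has no count in either library.

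The order of the levels held in 9 of the 10 pairs of the 5 counted genes. Mir127 exceeded Mir433 by 2.26-fold in replicate 1 and 2.03-fold in replicate 2. Mir433 in turn exceeded Mir434 by 12.5-fold and 9.14-fold, and Mir431 by 10.4-fold and 12.8-fold. Mir431 exceeded Mir136 by 24.5-fold in replicate 1 but by 8.86-fold in replicate 2, and Mir434 exceeded Mir136 by 20.3-fold and 12.4-fold. The exception was Mir434 over Mir431, with a log2 ratio of -0.27 (95% counting interval -0.33 to -0.22) in replicate 1 and 0.49 (0.44 to 0.54) in replicate 2. These 2 neighbours in the order do not differ beyond their spread.

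Of the 10 pairs, Mir127 over Mir431 moved least between the libraries, at 23.5-fold in replicate 1 and 25.9-fold in replicate 2. Mir431 over Mir136 moved most, by 1.47 on the log2 scale. Mir127 exceeded Mir136 by 576-fold in replicate 1 and by 230-fold in replicate 2. Small RNA reads run over a mature arm and not over the whole gene, so CPM was not divided by length in these ratios. Per nt of gene, the means were 653 CPM for Mir127, 172 for Mir433, 21.6 for Mir434, 20.4 for Mir431 and 2.22 for Mir136, which is the same order.

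**Figure D2:**
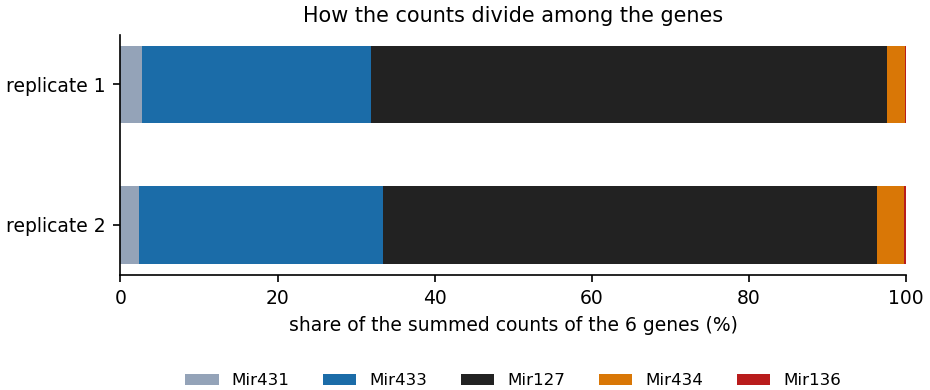
Share of the summed counts of the 6 genes held by each gene, as stacked bars for replicate 1 (above) and replicate 2 (below); Mir432 has no counts. Mir127 takes 65.7% and 62.9% and Mir433 29.1% and 31.0%, and Mir136 is barely visible at 0.114% and 0.273%.

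Nearest in level to Mir127 were Mirlet7i above it (50485 ± 5991 CPM, SD, n = 2) and Mir744 below it (43744 ± 3730 CPM). Mir433 stood between Mir23b (22192 ± 2686 CPM) and Mir487b (16832 ± 4881 CPM), and Mir487b belongs to the same imprinted locus. Mir434 stood between Mir370 (2117 ± 453 CPM), also of that locus, and Mir598 (1961 ± 465 CPM). Mir431 stood between Mir423 (1867 ± 1236 CPM) and Mir874 (1842 ± 663 CPM), and Mir136 between Mir505 (154 ± 52.6 CPM) and Mir16-1 (137 ± 27.8 CPM). In every case the distance between the means was within the neighbour's own SD. Within the libraries, the order held in both for 3 of these 10 neighbours, with Mirlet7i above Mir127, Mir433 above Mir487b and Mir370 above Mir434. It differed between the libraries for the others.

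The libraries were set against each other gene by gene with an exact binomial test (two-sided, TMM-scaled library sizes), over the 496 genes with at least 10 counts in total. All 5 counted genes were called at a Benjamini-Hochberg adjusted p under 0.05, where 57.1% of all tested genes were called, and 87.9% of the 231 genes that averaged 50 CPM or more. Of the 5, 3 were higher in replicate 1 (30.0% of all tested genes) and 2 were higher in replicate 2 (27.0% of all tested genes). The calls are thus common at these counts and compare 2 libraries, not conditions. The median size of the log2 ratio was 0.33 over the 5 genes, 0.42 over the genes with at least 50 CPM and 0.53 over all tested genes.

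Mir136 differed most, with a log2 ratio of replicate 1 over replicate 2 of -1.04 (95% counting interval -1.26 to -0.82, adjusted exact binomial p = 9.2e-23). It was 2.06-fold higher in replicate 2, and 87.4% of the genes with at least 50 CPM had a smaller ratio. A distance of over 2-fold was seen for 13.4% of those genes. Mir434 was also higher in replicate 2, with a log2 ratio of -0.33 (-0.38 to -0.28, adjusted exact binomial p = 1.0e-35).

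Mir431 was higher in replicate 1, with a log2 ratio of 0.43 (0.38 to 0.48, adjusted exact binomial p = 1.7e-56), or 1.35-fold. Mir127 was 1.22-fold higher in replicate 1 (log2 ratio 0.29, 0.27 to 0.30), although the ratio was -0.052 when scaled by the other genes of the imprinted locus. Mir433 had a log2 ratio of 0.13 (0.11 to 0.14, adjusted exact binomial p = 5.7e-58), or 1.09-fold, which turned to -0.077 with library totals and to -0.21 with the locus scaling. Among genes with at least 50 CPM, 9.96% had a smaller ratio than Mir433. TMM raises all log2 ratios by 0.20 relative to library totals, with which 102 genes were called higher in replicate 1 and 180 higher in replicate 2, beside 149 and 134 with TMM. Since a scaling shifts all ratios equally, it cannot change the order of the 5 ratios. Mir136 and Mir434 were lower in replicate 1 under each scaling tried.

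**Figure D3:**
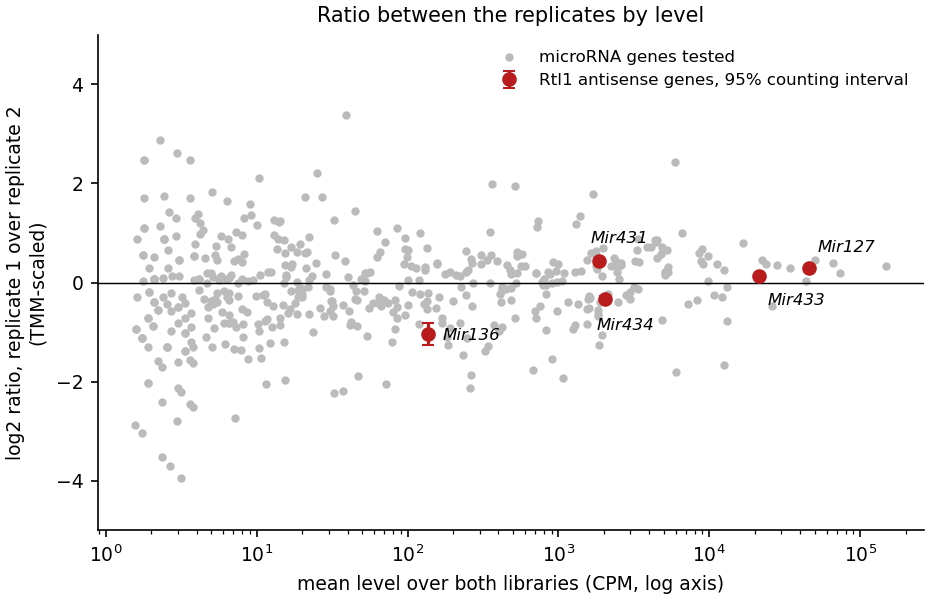
Log2 ratio of replicate 1 over replicate 2 after TMM scaling against the mean level in CPM (log axis), for 493 of the 496 tested microRNA genes (grey; 3 genes with no count in 1 library are left out) and the Rtl1 antisense genes (red, with 95% counting intervals). Mir431, Mir433 and Mir127 lie above 0 and Mir434 and Mir136 below it, all within the spread of the grey points.

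The strand opposite the 6 genes is the strand of Rtl1 mRNA. No read was counted there at any of the 6 genes in either library, which allows up to 3 counts per library at each. One other microRNA gene, Mir3071 (minus strand), covers Mir136 in full, with 62 nt in common as its reverse complement. Mir3071 had 0 own-strand counts in both libraries, and its opposite-strand counts of 246 and 621 match those of Mir136 to within 1 count. In the column for either strand, where the 2 genes overlap, Mir136 had 0 counts in both libraries, and its level comes from the own-strand column alone.

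From the start of Meg3 to the end of Dio3, the imprinted locus holds 59 plus-strand microRNA genes. The 6 Rtl1 antisense genes, 10.2% of them, held 40.5% of the locus counts in replicate 1 and 42.4% in replicate 2 (41.4% ± 1.37, SD, n = 2). The 44 genes downstream of Mir136 held 42.7% and 41.1% (41.9% ± 1.11), and the 9 genes upstream of Mir431 held 16.8% and 16.5% (16.7% ± 0.252). The median level was 1942 CPM over the 6 antisense genes, 378 CPM over the downstream genes and 210 CPM over the upstream genes. Levels of at least 1000 CPM were found in 4 of 6 antisense genes, 16 of 44 downstream genes and 3 of 9 upstream genes.

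Within the locus Mir127 ranked 1 and Mir433 ranked 3 in both libraries. Between them stood Mir770, which lies within Meg3 and was the highest upstream gene. Mir770 had 25034 and 22240 CPM (23637 ± 1975), and its range lay above that of Mir433 (20788 and 21921 CPM). The highest downstream gene was Mir487b at 16832 ± 4881 CPM. By mean level Mir434 ranked 13, Mir431 ranked 15 and Mir136 ranked 38 of the 59 genes, so the counted genes of the group cover the top and the middle of the locus. Mir432 was 1 of 6 locus genes with no count in either library.

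**Figure D4:**
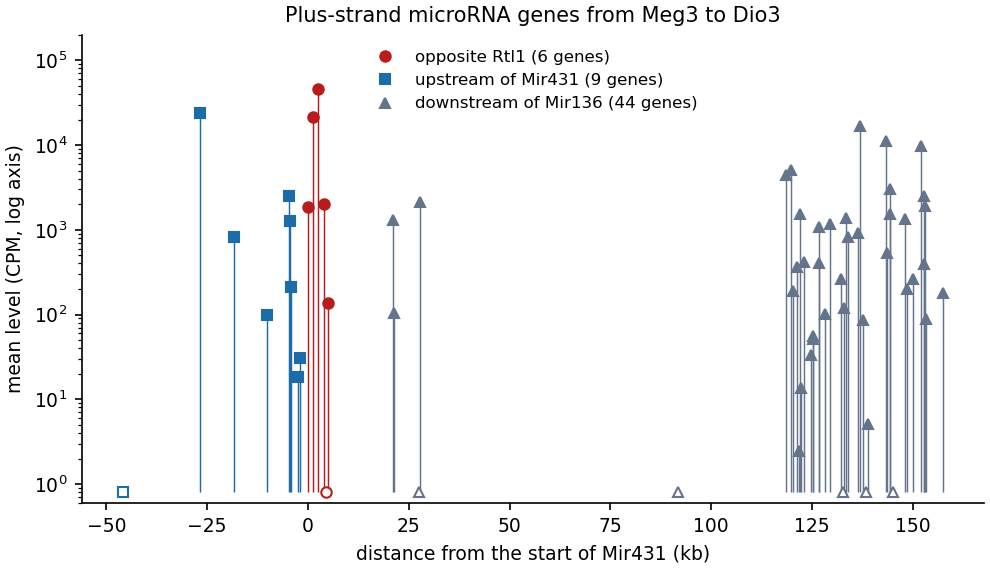
Mean level of the 59 plus-strand microRNA genes from Meg3 to Dio3 (CPM, log axis) against the distance of each gene's start from the start of Mir431 in kb; red circles are the Rtl1 antisense genes, grey triangles genes downstream and blue squares genes upstream, and open symbols lie below the level of 3 counts. The red group holds the highest gene, Mir127 at 45713 CPM, and also Mir432 with no count.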

How the data were processed

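Small RNAs were counted in 2 cortex libraries. The deposited files hold unnormalized read counts per microRNA gene, on mm10 with GENCODE M21, per the labels and the gene identifiers. Neither aligner nor counter is given in the sources used here. There is no header line, and the roles of the columns (either strand, own strand, opposite strand) were read from the values, since the own-strand column held 93.8% and 93.7% of stranded counts. The 4 classes of reads outside genes were left out of library sizes. They include unmapped reads (18.5% and 20.8% of 8491339 and 9289252 reads) and reads outside microRNA genes (5.59% and 5.69%). All 2202 identifiers matched the annotation.

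CPM, shares and ranks were computed from own-strand counts. Libraries were compared by a two-sided exact binomial test given TMM-scaled sizes from edgeR 4.0.16, for genes whose counts in both libraries summed to 10 or more, with Benjamini-Hochberg adjustment. The script was tested on simulated counts that vary by counting error only. That test therefore does not bear on calls at the larger spread between these libraries. With edgeR's common dispersion, the biological coefficient of variation between libraries was 36.8%. Intervals (95%) and limits of 3 counts cover counting error only, since PCR reads without molecular identifiers are not independent molecules.

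Mature and hairpin sequences came from RefSeq (GRCm38.p6), and all 6 genes matched and were identical to the GENCODE transcripts. Complements were searched as exact strings in the M21 transcripts, and folding energies came from ViennaRNA 2.7.2. No protein or genome sequence was used here. Besides the 6 genes, those named were the gene directly above and below each in mean level, genes overlapping one of the 6, and the highest gene upstream and downstream in the locus. Outside this rule, Mir122 was named as the only liver marker. Mir139, the Mir124a copies, Mir1247, Mir3070b and Mir341 were chosen after their values were seen. The members, the marker lists and the tests were chosen with earlier results of these data known. Alternatives were the either-strand column, all reads as the denominator, library totals, DESeq2 1.42.0 size factors, scaling by the locus, other count minimums, thinning, and leaving out each replicate. Python 3.11.15, pandas 2.3.3, scipy 1.17.1 and R 4.3.3 were used.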

Additional observations from a re-analysis of the deposited data

How the results depend on the processing

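The summed level of the 6 genes, 71089 CPM, was 76001 CPM from the either-strand column and 24912 CPM with all reads as the denominator. None of the 6 genes gained counts in the either-strand column. Its library totals were smaller, at 2818535 against 3017058 in replicate 1 and 2994039 against 3209361 in replicate 2. Their share of the locus counts, 41.4%, was 43.2% from the either-strand column, where Mir136 has no count. Without replicate 2 the log2 ratio of Mir434 over Mir431 was -0.27, against 0.11 over both libraries and 0.49 without replicate 1. The log2 ratio between libraries turned for Mir433, to -0.077 with library totals and -0.21 when scaled by the other locus genes, and for Mir127, to -0.052 with the locus scaling. Each scaling shifts every log2 ratio by the same amount, and this shift turned these small ratios. What lies behind the difference in scale between the libraries was not tested. The 5 counted genes stayed called under each scaling, count minimum and the thinning tried, and 4 of 4 tested were called from the either-strand column. Over these alternatives the share of all tested genes that was called ran from 37.2% (276 of 742, minimum of 1 count) to 81.4% (237 of 291, minimum of 100 counts). It was 54.3% (257 of 473) from the either-strand column and 60.3% (299 of 496) with the locus scaling. Detection of 5 genes held at minimums of 1 and 100 counts. No paired analysis was possible because there is 1 group, and the comparison of libraries needs both. Depth limits Mir432 and the opposite strand, which cannot be followed below 3 counts per library, and 2 libraries with the same donor record limit every SD.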

Other observations

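The other minus-strand microRNA genes of the imprinted locus gave a like picture to Mir3071. Of 8 annotated minus-strand genes, 7 overlap a plus-strand gene, and those 7 had 1 own-strand count in replicate 1 and 0 in replicate 2. Their plus-strand partners, among them Mir136, had 21479 counts in replicate 1 and 23232 in replicate 2. Mir1247, the minus-strand gene near Dio3 with no plus-strand partner, also named after its values were seen, had 12 counts in replicate 1 and 61 in replicate 2. The genes on either side of the Rtl1 antisense row, chosen after their values were seen, were Mir3070b at 30.7 CPM upstream and Mir341 at 1314 CPM downstream.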
